A study of Mus musculus with 12 samples.

Results

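The genes described here carry out mitosis: they build the spindle, hold chromosomes to it at the kinetochore, fold chromosomes for segregation, release sister chromatids and divide the cell. They were a list of 50 gene symbols chosen by function and set in 8 roles, of which 49 had a probe on the array and Mki67 was not analysed here. Each gene was read from 1 probe, the brightest over all mice among the probes annotated to its symbol, so that 49 of the 19057 gene symbols in the table were followed. The data were 1 spleen RNA array per mouse from 12 male C57Bl/6J mice, 4 on each of 3 diets, measured to see how high fat diets of different fat composition change splenic gene expression. Mice were 6 weeks old when bought, acclimatized for 3 weeks and fed their diet for 8 weeks.

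Fat made up 5 g per 100 g of the control diet, from 2.5 g corn oil and 2.5 g coconut oil. The high fat diet with corn oil (HFD-CO) held 15 g fat per 100 g, with 5 g corn oil, 10 g coconut oil and 1 g cholesterol. The high fat diet with EPA and DHA, the long-chain polyunsaturated fatty acids of fish oil (HFD-ED), held 15 g fat per 100 g, with 3 g corn oil, 10 g coconut oil, 2 g of an EPA and DHA oil and 1 g cholesterol. The 2 high fat diets therefore shared their coconut oil and cholesterol, and in HFD-ED the EPA and DHA oil took the place of part of the corn oil. The mice were picked by the authors from larger groups by body weight and plasma lipids.

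Values are normalized log2 levels between 6.95 and 14.79, on a scale that compresses differences near its floor. A probe with a mean of 7.5 or lower over the 12 mice is called dim here, and 34 of the 49 genes lay above that limit. A protocol note in the labels names skeletal muscle although every sample is labelled spleen: 11 of 12 measured skeletal muscle genes were dim, while Cd79b, a component of the B cell receptor, lay between 12.32 and 12.99 in every mouse. The 11 measured pancreatic acinar genes stood apart in HFD-CO replicate 4, on average 4.98 log2 units above their 12-mouse mean, and in HFD-CO replicate 1, at 1.12, so several differences between HFD-ED and HFD-CO are given below also without these 2 mice.

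In dividing cells the mitotic genes are switched on together in the G2 and M phases of the cell cycle. Outside those phases a repressor complex known as DREAM holds many of them down, and it is tethered to DNA by a short promoter element, the cell cycle homology region. Activation commonly runs through CCAAT boxes, bound by the factor NF-Y. In the mouse the spleen is a site of red cell production besides being a lymphoid organ, so erythroid precursors, lymphocytes and myeloid precursors may all divide in it. A spleen array averages over these cells, and more dividing cells cannot be told apart from more mitotic RNA per cell.

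Promoter sequences are shown first because letters of these elements were shared by most of the genes, a feature that played no part in choosing them. RefSeq promoters (mouse build GRCm38.p6) running from 250 bases before to 50 bases after an annotated start were held for 43 of the 50 genes, as 46 promoters, and for 32851 promoters in all. The CCAAT box, searched as CCAAT on both strands (ATTGG on the reverse), occurred in 35 of the 46 promoters (76.1%) and in 37.4% of all promoters. The cell cycle homology region, searched as TTTGAA or TTTAAA on both strands, occurred in 36 of 46 (78.3%) against 27.6% of all promoters. TTTGAA alone made up most of this, at 73.9% against 17.9%, whereas TTTAAA alone was found in 17.4% against 13.2%. Both elements were present in 31 of 46 promoters (67.4%), against 10.7% of all promoters.

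The 6 promoters below are those richest in matches within the 150 bases before the start, among the genes with values for each mouse. Matches farther upstream or after the start were not counted for this choice. Cdca3 was taken from 6 genes tied at 2 matches for its smallest p in HFD-ED against control. They are printed as the 150 bases that end just before the annotated start on the gene's strand, 5′ to 3′. Capitals mark the letters of either element, on either strand.
Hmmr, chr11:40733438-40733587, minus strand: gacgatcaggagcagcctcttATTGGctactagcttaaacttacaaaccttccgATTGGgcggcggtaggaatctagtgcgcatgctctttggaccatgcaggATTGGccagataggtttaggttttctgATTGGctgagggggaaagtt
Cdc20, chr4:118437344-118437493, minus strand: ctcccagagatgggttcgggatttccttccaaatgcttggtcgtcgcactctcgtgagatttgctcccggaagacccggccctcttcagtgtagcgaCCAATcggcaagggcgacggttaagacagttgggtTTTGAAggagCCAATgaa
Plk1, chr7:122159285-122159434, plus strand: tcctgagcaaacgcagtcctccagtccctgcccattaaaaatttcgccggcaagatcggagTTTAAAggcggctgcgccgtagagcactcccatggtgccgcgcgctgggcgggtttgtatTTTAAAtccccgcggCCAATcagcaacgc
Cdca8, chr4:124936918-124937067, minus strand: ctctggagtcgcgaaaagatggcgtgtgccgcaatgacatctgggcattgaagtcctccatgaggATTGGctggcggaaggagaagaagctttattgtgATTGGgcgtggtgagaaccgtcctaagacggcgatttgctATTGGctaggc
Ncapd2, chr6:125191587-125191736, minus strand: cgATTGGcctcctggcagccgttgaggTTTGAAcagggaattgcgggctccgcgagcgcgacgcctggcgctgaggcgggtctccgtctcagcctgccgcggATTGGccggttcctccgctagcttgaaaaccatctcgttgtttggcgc
Cdca3, chr6:124830026-124830175, plus strand: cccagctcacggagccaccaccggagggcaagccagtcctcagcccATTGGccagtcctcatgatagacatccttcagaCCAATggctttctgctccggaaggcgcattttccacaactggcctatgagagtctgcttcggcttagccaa
The Hmmr window held 4 CCAAT boxes, all in the ATTGG orientation, the first bases of which lay 129, 96, 47 and 20 bases before the start. Cdc20 had CCAAT boxes at 53 and 8 bases before the start, with a TTTGAA between them at 18. Plk1 carried 2 TTTAAA matches, at 89 and 29 bases before the start, and a CCAAT box at 14. Cdca8 held 3 CCAAT boxes, and Ncapd2 held 2 with a TTTGAA at 123 bases before the start. The printed bases of Hmmr, Cdca8 and Cdca3 held no cell cycle homology region, but each of these promoters had a match outside them. A match describes letters and not a bound site.

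**Figure D1:**
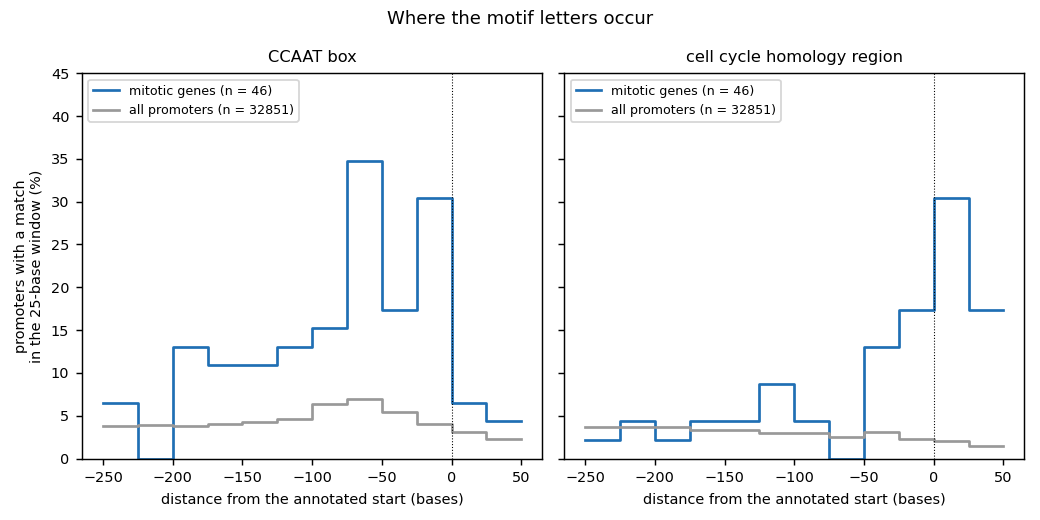
Share of promoters (%, y axis) with a match to each element in windows of 25 bases by distance from the annotated start (bases, x axis), for the 46 promoters of mitotic genes and all 32851 promoters. Matches to the cell cycle homology region gather around the start of mitotic genes, where 67.4% of them and 8.28% of all promoters held one between 50 bases before and 50 after, and CCAAT boxes gather upstream of it.

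Across the 49 genes, HFD-ED spleens had higher levels than control spleens for 46 genes and lower levels for 3, with a median difference of 0.44 log2 units against −0.0036 over all gene symbols. No gene passed limma's test at an adjusted p of 0.05, the smallest adjusted p among the 49 being 0.252, and 0% of the 45281 probes passed it. At an unadjusted p under 0.05, 35 of the 49 genes were higher and 0 lower, against 5.69% of all gene symbols higher and 7.55% lower. Among gene symbols that were not dim the same background was 10.3%, and 31 of the 34 such mitotic genes met the criterion. All 34 lay higher in HFD-ED, with a median of 0.62 and a range of 0.03 to 1.29. In 7 genes, Aurkb, Bub1b, Mad2l1, Ndc80, Ncapg, Top2a and Stmn1, every HFD-ED mouse lay above every control mouse, against 1.99% of all gene symbols, and in 0 genes below, against 3.49%.

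Compared with HFD-CO, HFD-ED levels were also higher for 46 genes and lower for 3, with a median of 0.38 against −0.0026 over all gene symbols. The smallest adjusted p among the 49 was 0.342, and 1 probe of all those on the array, 0.00221%, passed the threshold. Unadjusted p-values under 0.05 were reached by 32 genes higher in HFD-ED, against 6.07% of all gene symbols, and by 1 gene lower, Pttg1, against 5.82%. For genes that were not dim the count was 29 of 34, against 10.9%. Groups did not overlap in 3 genes with HFD-ED higher, Cdc20, Ndc80 and Kif20a, against 1.93% of all gene symbols, and in 1 with HFD-ED lower, again Pttg1, against 2.61%. Kif20a and Pttg1 were dim, and the Kif20a difference was only 0.02 ± 0.01 (SE). The 32 became 15 without HFD-CO replicate 4, 17 without HFD-ED replicate 3 and 20 without HFD-CO replicate 2. Without HFD-CO replicates 1 and 4, which left 2 HFD-CO mice, the median was 0.31 and 46 genes were again higher. In that fit 2 genes higher, Stmn1 and Cdca5, and 1 lower, Pttg1, had an unadjusted p under 0.05. For fits with mice left out the share of all gene symbols at that p is not given. Their counts therefore cannot be set against a background. The 2 HFD-ED comparisons share the HFD-ED mice, so they are not independent of each other.

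HFD-CO and control spleens gave a median difference of 0.02, with 37 genes higher and 12 lower in HFD-CO. None of the 49 genes had an unadjusted p under 0.05 in limma's test, a criterion met by 2.12% of all gene symbols higher and 2.88% lower. The groups overlapped in each of the 49, while 1.46% of all gene symbols lay wholly higher and 1.85% wholly lower, and 0% of probes passed the adjusted threshold. The differences ran from −0.17 to 0.25, and without HFD-CO replicates 1 and 4 the median was 0.09. Leaving out HFD-CO replicate 3, control replicate 1 or control replicate 2 turned the median to −0.01, −0.01 and −0.0023, so no direction is given for this comparison.

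**Figure D2:**
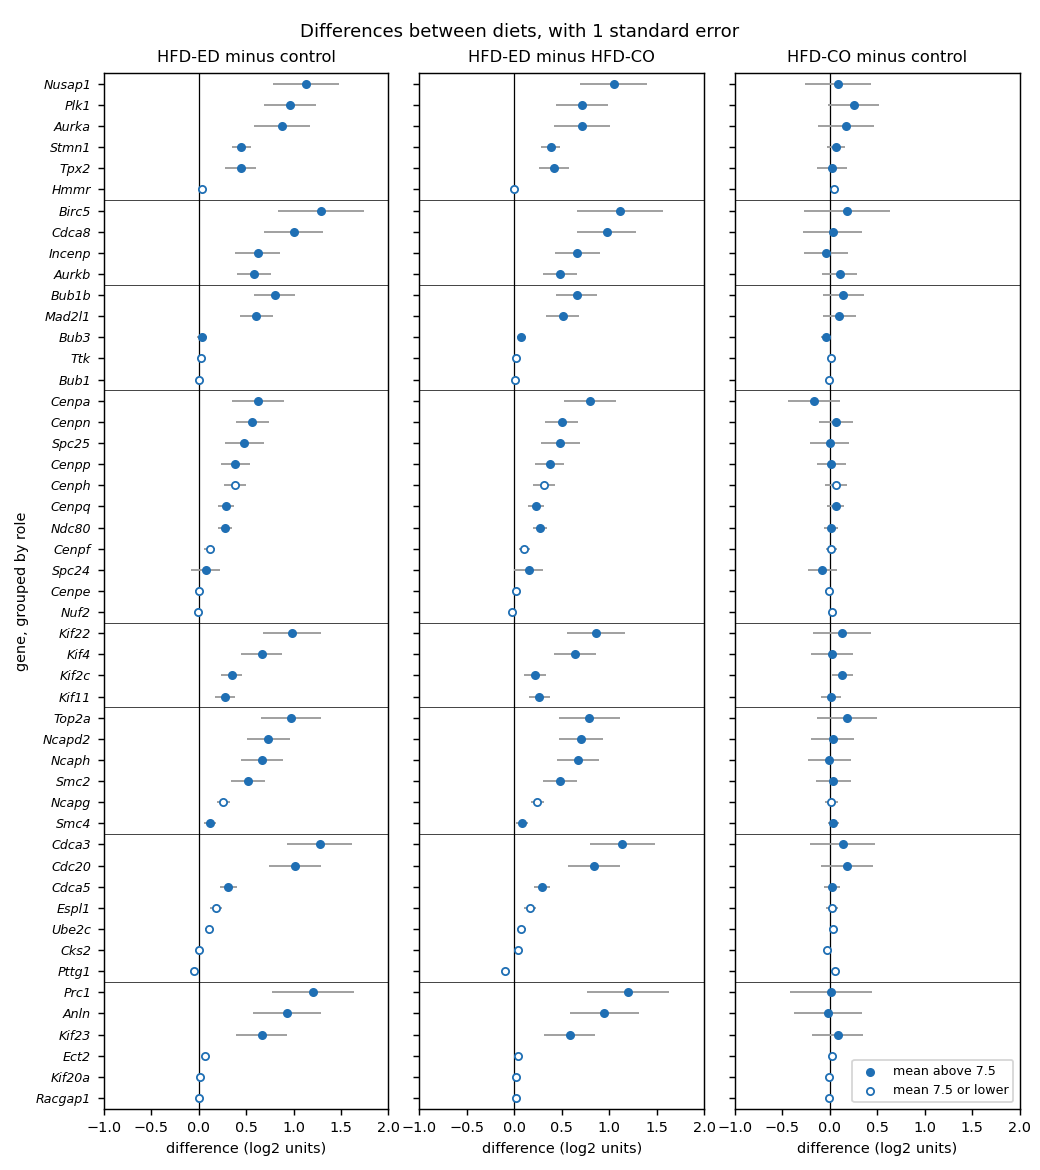
Difference in normalized level (log2 units, x axes) of each of the 49 genes, grouped by role, for the 3 pairs of diets, with bars of 1 standard error (4 mice per diet); filled points are genes with a mean above 7.5 and open points dim genes. In both HFD-ED panels the filled points lie to the right of 0 and the open points mostly close to 0, while in HFD-CO minus control all points lie between −0.17 and 0.25.

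The same mice stood high or low across most of the genes. Averaged over the 49 genes, the deviation from the 12-mouse mean was −0.38, −0.32, −0.05 and 0.05 in control replicates 1 to 4, −0.10, −0.21, 0.11 and −0.31 in the HFD-CO mice, and −0.07, 0.32, 0.63 and 0.33 in the HFD-ED mice. HFD-ED replicate 1 therefore lay within the range of the other diets and replicates 2, 3 and 4 above it. HFD-ED replicate 3 was the highest of all 12 mice in 39 of the 49 genes and the lowest in 2. Over all gene symbols it was the highest in 13.4% and the lowest in 15.6%, each the largest share of any mouse. Among genes that were not dim it was the highest in 33 of the 34 mitotic genes, against 20.7% of such gene symbols. Its share of lowest places among such gene symbols was larger still. This array therefore lay at both extremes well beyond the mitotic genes. HFD-ED replicate 1 was the lowest of its diet in 43 genes, and HFD-ED replicates 2, 3 and 4 all exceeded every control mouse in 36 genes and every HFD-CO mouse in 35. Over all gene symbols these shares were 25.6%, 7.07% and 6.81%. The lowest of the 12 mice was control replicate 1 or 2 in 33 genes, against 13.7% of all gene symbols. Within HFD-CO, replicate 3 was the highest in 38 genes, against 25.1%.

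**Figure D3:**
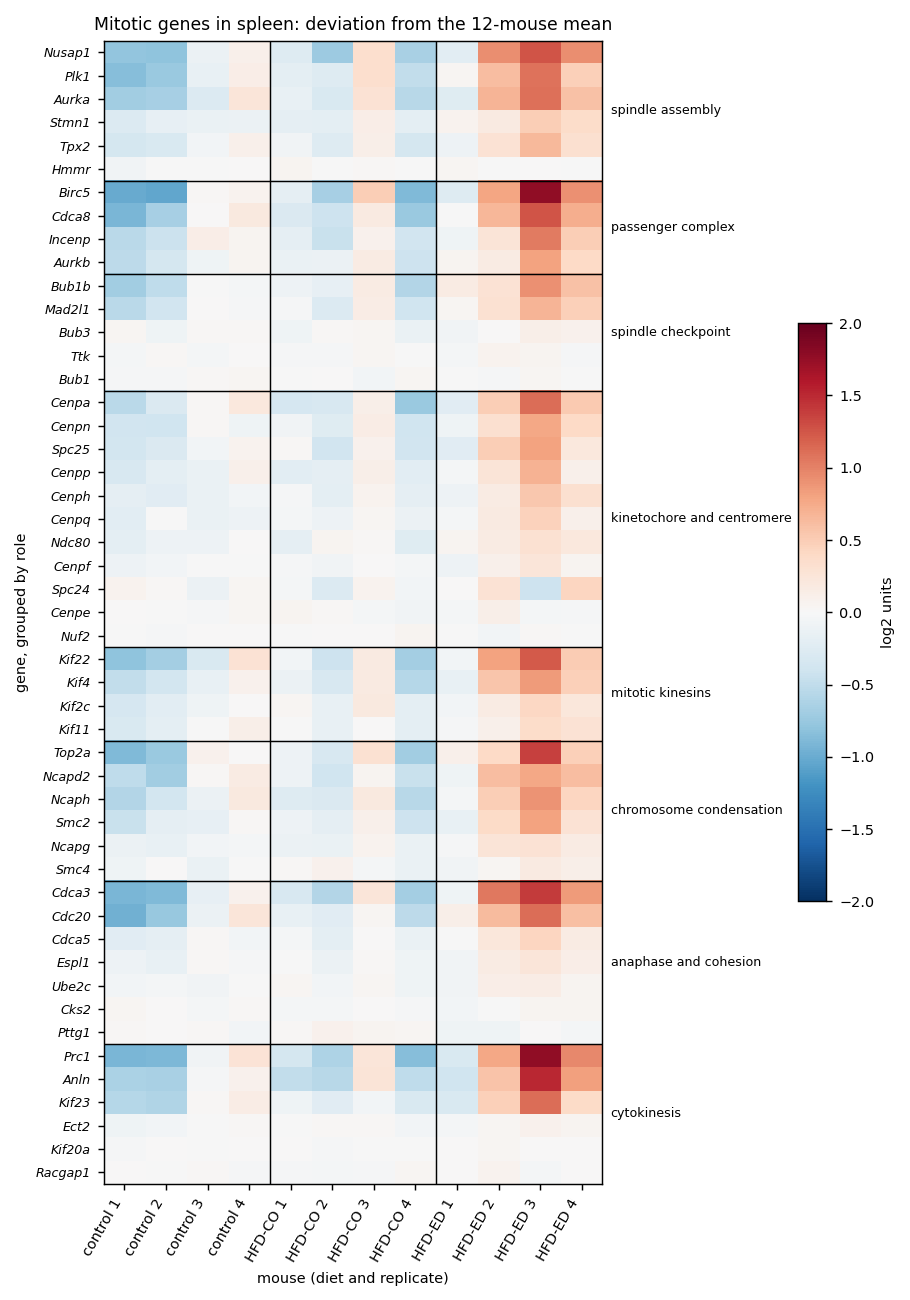
Deviation of each of 49 mitotic genes (rows, grouped by role) from its own mean over the 12 mice, in log2 units (colour scale), for each mouse (columns, by diet and replicate). HFD-ED replicates 2, 3 and 4 are the reddest columns, control replicates 1 and 2 and HFD-CO replicate 4 the bluest, and HFD-ED replicate 1 is pale.

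Of 6 spindle assembly genes, all 6 were higher in HFD-ED than in control spleens and 5 had an unadjusted p under 0.05, with a median difference of 0.67. For this and the following roles, the share higher at that p was 5.69% of all gene symbols and 10.3% of those not dim. Stmn1 levels in replicates 1 to 4 were 7.47, 7.59, 7.61 and 7.64 in control, 7.57, 7.55, 7.89 and 7.55 in HFD-CO and 7.82, 7.94, 8.24 and 8.11 in HFD-ED mice, Stmn1 being stathmin, a protein that destabilizes microtubules. Every HFD-ED mouse lay above every control mouse, HFD-CO replicate 3 reached into the HFD-ED range and the other HFD-CO mice sat with the control mice. The difference from control was 0.45 ± 0.10 (SE, limma adjusted p = 0.252), which was the smallest p of the 49 genes, and from HFD-CO 0.38 ± 0.10 (SE, limma adjusted p = 0.350), or 0.31 without HFD-CO replicates 1 and 4.

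Plk1 levels in replicates 1 to 4 were 7.90, 8.01, 8.60 and 8.88 in control, 8.55, 8.50, 9.08 and 8.26 in HFD-CO and 8.79, 9.37, 9.84 and 9.23 in HFD-ED mice. Polo-like kinase 1, which drives entry into mitosis and maturation of the spindle poles, was highest in HFD-ED replicate 3, and only HFD-ED replicate 1 fell below the highest control mouse. HFD-ED exceeded control by 0.96 ± 0.27 (SE, limma adjusted p = 0.315). Hmmr levels in replicates 1 to 4 were 7.01, 7.07, 7.08 and 7.09 in control, 7.14, 7.08, 7.12 and 7.08 in HFD-CO and 7.13, 7.08, 7.10 and 7.08 in HFD-ED mice. Hmmr, a spindle-associated protein whose promoter window held the most CCAAT boxes, was dim, and its values overlapped in all 3 diets with a difference of 0.03 ± 0.02 (SE). The other 3 genes were Aurka, the centrosomal Aurora kinase, its activator Tpx2, and the microtubule bundling protein Nusap1, with differences from control of 0.88 ± 0.30 (SE), 0.44 ± 0.16 (SE) and 1.13 ± 0.35 (SE).

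All 4 subunits of the chromosomal passenger complex, which corrects faulty attachments of chromosomes to the spindle, were higher in HFD-ED than in control and in HFD-CO spleens, with unadjusted p-values under 0.05 in both comparisons and medians of 0.81 and 0.82. Without HFD-CO replicates 1 and 4 all 4 were still higher than in HFD-CO, with a median of 0.69, but 0 had an unadjusted p under 0.05 in limma's test. Aurkb levels in replicates 1 to 4 were 7.61, 7.78, 8.06 and 8.19 in control, 8.0, 8.01, 8.30 and 7.73 in HFD-CO and 8.19, 8.30, 8.94 and 8.53 in HFD-ED mice. The HFD-ED mice of Aurkb, its kinase subunit, lay above all control mice by a narrow margin, and HFD-CO replicate 3 lay among them. The difference from control was 0.58 ± 0.18 (SE, limma adjusted p = 0.344), and this was the smallest difference of the 4 subunits.

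Cdca8 levels in replicates 1 to 4 were 8.25, 8.50, 9.16 and 9.35 in control, 8.87, 8.74, 9.34 and 8.42 in HFD-CO and 9.14, 9.83, 10.41 and 9.88 in HFD-ED mice. In Cdca8, or borealin, HFD-ED replicate 1 fell within the control and HFD-CO ranges while the other HFD-ED mice exceeded both. It differed from control by 1.0 ± 0.31 (SE, limma adjusted p = 0.344). Birc5, or survivin, and the scaffold Incenp differed from control by 1.29 ± 0.45 (SE) and 0.62 ± 0.24 (SE), Birc5 having the largest difference of the 49 genes in this comparison.

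Of the 5 spindle checkpoint genes, which delay anaphase until every chromosome is attached, 2 had an unadjusted p under 0.05 in HFD-ED against control and 3 differed by less than 0.04. Bub1b levels in replicates 1 to 4 were 8.52, 8.71, 9.21 and 9.19 in control, 9.12, 9.06, 9.39 and 8.63 in HFD-CO and 9.39, 9.50, 10.14 and 9.81 in HFD-ED mice. Bub1b, the checkpoint protein BubR1, was higher in every HFD-ED mouse than in any control mouse, and HFD-ED replicate 1 was level with HFD-CO replicate 3. Its difference from control was 0.80 ± 0.22 (SE, limma adjusted p = 0.303), and another probe of the gene, with a mean of 7.58, gave 0.17 ± 0.09 (SE, limma adjusted p = 0.540). Mad2l1 levels in replicates 1 to 4 were 8.58, 8.74, 9.13 and 9.10 in control, 9.10, 8.84, 9.28 and 8.73 in HFD-CO and 9.17, 9.43, 9.80 and 9.59 in HFD-ED mice. In Mad2l1, which holds back Cdc20, the HFD-ED mice again lay above all control mice, with a difference of 0.61 ± 0.17 (SE, limma adjusted p = 0.312). Bub1 levels in replicates 1 to 4 were 7.07, 7.08, 7.12 and 7.14 in control, 7.10, 7.10, 7.05 and 7.13 in HFD-CO and 7.10, 7.08, 7.14 and 7.09 in HFD-ED mice. The kinase Bub1 was dim and overlapped across the diets, differing from control by −0.00086 ± 0.02 (SE). Bub3, which was not dim, differed by 0.03 ± 0.05 (SE) and the dim kinase Ttk by 0.03 ± 0.03 (SE).

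The kinetochore and centromere group held 11 genes, of which 10 were higher in HFD-ED than in control and 7 had an unadjusted p under 0.05, with a median of 0.29. Ndc80 levels in replicates 1 to 4 were 7.57, 7.66, 7.65 and 7.76 in control, 7.58, 7.82, 7.78 and 7.52 in HFD-CO and 7.82, 7.93, 8.06 and 7.96 in HFD-ED mice. Ndc80, a subunit of the complex that grips microtubule ends, was the only one of the 49 genes in which every HFD-ED mouse exceeded every mouse of both other diets. The margin was small, since HFD-ED replicate 1 and HFD-CO replicate 2 were both at 7.82 after rounding. Differences were 0.28 ± 0.07 (SE, limma adjusted p = 0.297) from control and 0.27 ± 0.07 (SE, limma adjusted p = 0.381) from HFD-CO. A two-sided exact permutation test gave p = 0.0286 for each, its smallest possible value with 4 mice against 4. Groups of this size that do not overlap always give that value, so it adds nothing to the lack of overlap. Without HFD-CO replicates 1 and 4 the difference from HFD-CO was 0.15 ± 0.07 (SE).

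The partners of Ndc80 in that complex differed among themselves. Nuf2 levels in replicates 1 to 4 were 7.12, 7.10, 7.14 and 7.14 in control, 7.12, 7.14, 7.14 and 7.18 in HFD-CO and 7.13, 7.08, 7.15 and 7.13 in HFD-ED mice. Nuf2 was dim and its diets overlapped, with a difference from control of −0.0031 ± 0.02 (SE). Spc25 differed by 0.48 ± 0.20 (SE), whereas Spc24, also above 7.5, differed by 0.07 ± 0.15 (SE). Spc24 was also the one gene above 7.5 in which HFD-ED replicate 3 was the lowest of the 12 mice, at 8.06, with HFD-ED replicate 4 the highest at 8.90.

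Cenph levels in replicates 1 to 4 were 7.26, 7.22, 7.31 and 7.39 in control, 7.42, 7.26, 7.51 and 7.26 in HFD-CO and 7.34, 7.61, 7.99 and 7.77 in HFD-ED mice. Cenph, one of the proteins that bind the centromere throughout the cell cycle, was dim, with HFD-ED replicate 1 inside the control range and the other HFD-ED mice above it. It differed from control by 0.38 ± 0.12 (SE, limma adjusted p = 0.344). The centromeric histone Cenpa differed by 0.62 ± 0.27 (SE), Cenpn by 0.56 ± 0.18 (SE), Cenpp by 0.39 ± 0.15 (SE) and Cenpq by 0.29 ± 0.09 (SE). Cenpf and the kinetochore motor Cenpe, both dim, differed by 0.12 ± 0.06 (SE) and 0.004 ± 0.04 (SE).

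Each of the 4 mitotic kinesins, motors that move along or dismantle microtubules, was higher in HFD-ED than in control with an unadjusted p under 0.05, and the median was 0.51. Kif22 levels in replicates 1 to 4 were 8.15, 8.28, 8.66 and 9.25 in control, 8.90, 8.55, 9.13 and 8.27 in HFD-CO and 8.90, 9.76, 10.18 and 9.46 in HFD-ED mice. Kif22, which pushes chromosome arms outward, was lower in HFD-ED replicate 1 than in control replicate 4 and higher in the other HFD-ED mice. The difference from control was 0.99 ± 0.31 (SE, limma adjusted p = 0.345). Kif2c levels in replicates 1 to 4 were 7.47, 7.59, 7.71 and 7.81 in control, 7.84, 7.65, 8.01 and 7.61 in HFD-CO and 7.75, 7.97, 8.21 and 8.03 in HFD-ED mice. In the depolymerase Kif2c, HFD-CO replicate 3 stood among the HFD-ED mice, and the difference was 0.35 ± 0.11 (SE, limma adjusted p = 0.365) from control and 0.22 ± 0.11 (SE, limma adjusted p = 0.604) from HFD-CO, or 0.16 without HFD-CO replicates 1 and 4.

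Kif11 levels in replicates 1 to 4 were 7.29, 7.40, 7.59 and 7.72 in control, 7.59, 7.45, 7.61 and 7.40 in HFD-CO and 7.57, 7.69, 7.97 and 7.88 in HFD-ED mice. Kif11, the motor that separates the spindle poles, had HFD-ED replicates 1 and 2 below control replicate 4 and a difference from control of 0.28 ± 0.11 (SE, limma adjusted p = 0.421). Kif4 differed by 0.66 ± 0.22 (SE).

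All 6 measured chromosome condensation genes were higher in HFD-ED than in control, 5 with an unadjusted p under 0.05, and the median was 0.59. Ncapg levels in replicates 1 to 4 were 7.24, 7.19, 7.29 and 7.31 in control, 7.24, 7.21, 7.42 and 7.22 in HFD-CO and 7.32, 7.60, 7.63 and 7.51 in HFD-ED mice. Ncapg, a subunit of condensin I, was dim, and its HFD-ED mice all lay above the control mice while HFD-CO replicate 3 exceeded HFD-ED replicate 1. It differed from control by 0.26 ± 0.07 (SE, limma adjusted p = 0.298), and another, dimmer probe of the gene gave −0.02. Ncapd2 levels in replicates 1 to 4 were 8.37, 8.18, 8.89 and 9.03 in control, 8.76, 8.48, 8.92 and 8.42 in HFD-CO and 8.78, 9.49, 9.64 and 9.49 in HFD-ED mice. Its fellow subunit Ncapd2 had HFD-ED replicate 1 inside both other ranges and the remaining HFD-ED mice above them. The difference from control was 0.74 ± 0.23 (SE, limma adjusted p = 0.344).

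Smc4 levels in replicates 1 to 4 were 7.51, 7.61, 7.46 and 7.60 in control, 7.63, 7.69, 7.56 and 7.47 in HFD-CO and 7.53, 7.65, 7.78 and 7.71 in HFD-ED mice. For Smc4, the ATPase found in both condensins, the 3 diets overlapped and the difference was 0.12 ± 0.06 (SE). Its ATPase partner Smc2 differed by 0.52 ± 0.18 (SE), the condensin I subunit Ncaph by 0.67 ± 0.22 (SE) and the topoisomerase Top2a, which untangles sister chromatids, by 0.97 ± 0.32 (SE).

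Of the 7 genes of anaphase and cohesion, 6 were higher in HFD-ED than in control, 5 of them with an unadjusted p under 0.05, and the median was 0.18. Cdca3 levels in replicates 1 to 4 were 8.49, 8.52, 9.23 and 9.48 in control, 9.07, 8.82, 9.64 and 8.72 in HFD-CO and 9.31, 10.45, 10.80 and 10.26 in HFD-ED mice. Cdca3, a regulator of mitotic entry, had HFD-ED replicate 1 within the other ranges and the remaining HFD-ED mice above every other mouse. It differed from control by 1.27 ± 0.34 (SE, limma adjusted p = 0.30). Cdc20 levels in replicates 1 to 4 were 8.17, 8.37, 9.01 and 9.37 in control, 8.97, 8.89, 9.16 and 8.60 in HFD-CO and 9.24, 9.76, 10.24 and 9.73 in HFD-ED mice. In Cdc20, which activates the anaphase-promoting complex, every HFD-ED mouse exceeded every HFD-CO mouse, while HFD-ED replicate 1 lay just under control replicate 4. Its differences were 1.01 ± 0.27 (SE, limma adjusted p = 0.302) from control and 0.84 ± 0.27 (SE, limma adjusted p = 0.454) from HFD-CO, or 0.72 without HFD-CO replicates 1 and 4.

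Pttg1 levels in replicates 1 to 4 were 7.26, 7.25, 7.27 and 7.20 in control, 7.27, 7.33, 7.30 and 7.29 in HFD-CO and 7.16, 7.17, 7.25 and 7.20 in HFD-ED mice. Pttg1, or securin, which restrains the protease separase until anaphase, was dim, and every HFD-ED mouse lay below every HFD-CO mouse, with a difference of −0.10 ± 0.02 (SE, limma adjusted p = 0.342) that was the smallest p of the 49 genes in this comparison. Without HFD-CO replicates 1 and 4 it was −0.12 ± 0.03 (SE). HFD-ED differed from control by −0.05 ± 0.02 (SE) and HFD-CO from control by 0.05 ± 0.02 (SE), with the control mice overlapping both. Cks2 levels in replicates 1 to 4 were 7.11, 7.08, 7.04 and 7.09 in control, 7.04, 7.03, 7.08 and 7.04 in HFD-CO and 7.02, 7.07, 7.12 and 7.13 in HFD-ED mice. Cks2, a small partner of cyclin-dependent kinases, was dim and overlapped across the diets, with a difference from control of 0.0051 ± 0.03 (SE). Separase itself, Espl1, differed from control by 0.18 ± 0.06 (SE), the ubiquitin-conjugating enzyme Ube2c by 0.11 ± 0.05 (SE) and the cohesin-protecting factor Cdca5, or sororin, by 0.31 ± 0.09 (SE).

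Cytokinesis genes were higher in HFD-ED than in control for 6 of 6, with 3 at an unadjusted p under 0.05 and a median of 0.36. Prc1 levels in replicates 1 to 4 were 9.20, 9.23, 10.05 and 10.39 in control, 9.78, 9.50, 10.37 and 9.26 in HFD-CO and 9.82, 10.90, 11.90 and 11.08 in HFD-ED mice. Prc1 bundles the microtubules of the spindle midzone, and its HFD-ED replicate 3 stood far above all other mice while HFD-ED replicate 1 lay below 2 control mice. The difference from control was 1.21 ± 0.43 (SE, limma adjusted p = 0.399). Anln levels in replicates 1 to 4 were 7.75, 7.74, 8.37 and 8.47 in control, 7.90, 7.83, 8.65 and 7.88 in HFD-CO and 7.99, 8.96, 9.90 and 9.20 in HFD-ED mice. Anillin, Anln, a scaffold of the contractile ring, followed the same order of mice within HFD-ED, with a difference of 0.93 ± 0.36 (SE, limma adjusted p = 0.423).

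Racgap1 levels in replicates 1 to 4 were 7.08, 7.06, 7.09 and 7.05 in control, 7.04, 7.03, 7.05 and 7.11 in HFD-CO and 7.08, 7.14, 7.03 and 7.07 in HFD-ED mice. Racgap1, a component of the centralspindlin complex, was dim and its diets overlapped, with a difference from control of 0.0084 ± 0.02 (SE). Its motor partner Kif23 differed by 0.66 ± 0.27 (SE). Kif20a and Ect2, both dim, differed by 0.02 ± 0.01 (SE) and 0.06 ± 0.03 (SE).

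**Figure D4:**
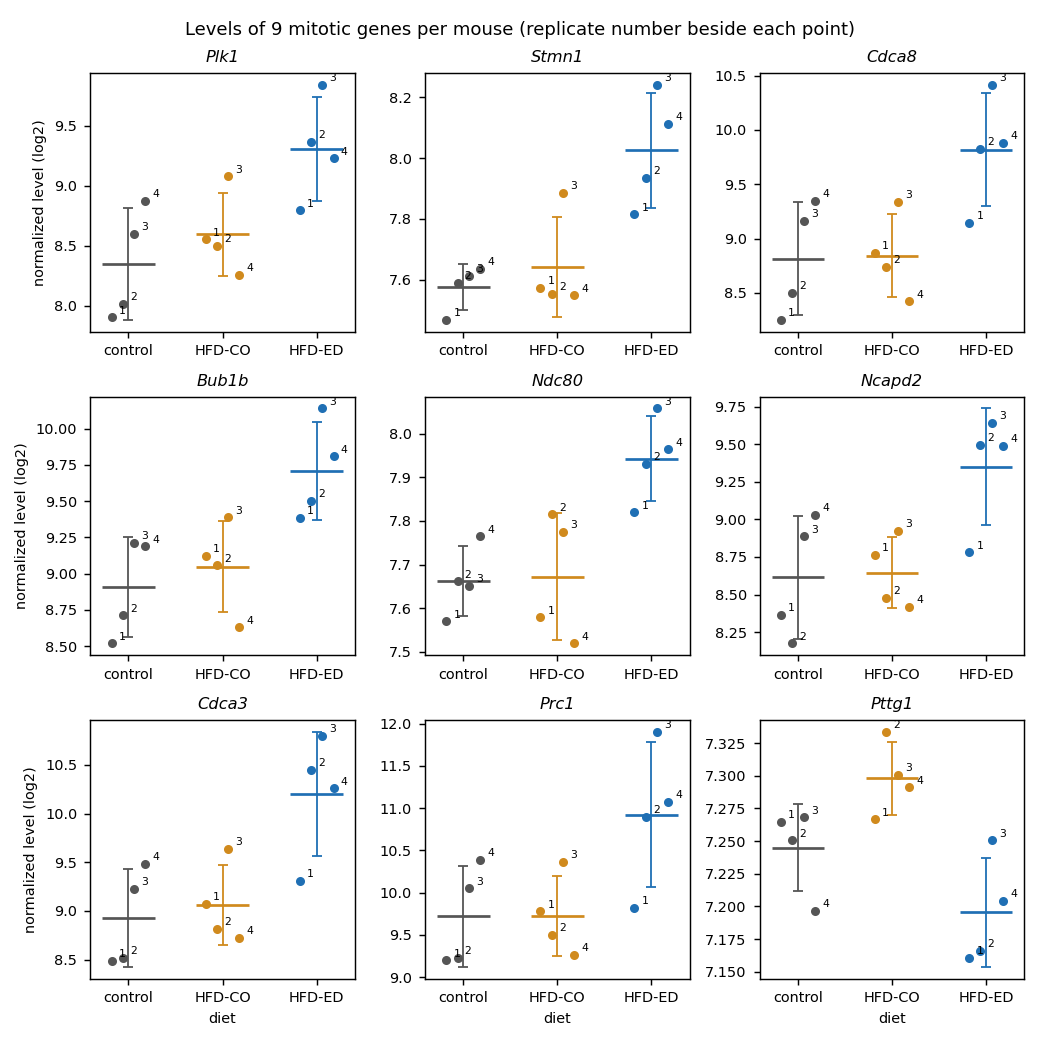
Normalized level (log2, y axes, each gene on its own scale that does not start at 0) of 9 mitotic genes by diet (x axes), with a point per mouse, its replicate number, the mean as a line and 1 SD as a bar (4 mice per diet). HFD-ED replicate 3 is the highest HFD-ED mouse in all 9 genes, replicate 1 the lowest, and in Pttg1 the HFD-ED mice lie below the HFD-CO mice.

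Genes with several probes were checked for agreement. The 49 genes had 51 other probes, and 41 of them had the same sign as the probe used for HFD-ED against control. The 14 other probes above 7.5, in 11 genes, all had the same sign, with differences of 0.17 to 1.11, and the 10 of opposite sign differed by at most 0.03 in size. For a dim gene the scale leaves little room for a difference, so a small value does not show an equal level. Spread within a diet was wide: the median SD of the 34 genes above 7.5 was 0.30 in control, 0.24 in HFD-CO and 0.39 in HFD-ED mice.

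The promoter elements were set beside the differences. The median difference between HFD-ED and control was 0.54 in 32 genes with a cell cycle homology region and 0.33 in 10 without. Their ranges overlapped widely, from 0.004 to 1.29 and from −0.05 to 1.13. With a CCAAT box the median was 0.48 in 31 genes, and without one 0.39 in 11 genes, with ranges of −0.00086 to 1.27 and −0.05 to 1.29. Dim genes, whose differences are compressed, were in each of these groups and were not set apart. Among the 10 genes without a cell cycle homology region they were Bub1, Cenph, Cks2, Nuf2 and Pttg1. Among the 32 with one they were Cenpe, Cenpf, Ect2, Espl1, Hmmr, Ncapg, Racgap1, Ttk and Ube2c, a smaller share of that group. A link between either element and the differences was not tested.

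A second list of 79 other genes of mitosis, 76 of them measured, was followed for the rest of the pathway. In HFD-ED against control 61 were higher and 15 lower, with a median of 0.14, and 34 higher and 2 lower genes had an unadjusted p under 0.05. Over all gene symbols 5.69% were higher and 7.55% lower at that p. Against HFD-CO the counts were 67 higher and 9 lower, with a median of 0.14, and without HFD-CO replicates 1 and 4 they were 63 and 13, with a median of 0.11. No gene of the list passed the adjusted threshold in limma's test in any comparison. The condensin II subunit Ncapg2 ran from 7.70 to 7.88 in control, from 7.78 to 8.03 in HFD-CO and from 7.99 to 8.27 in HFD-ED mice. Its difference from control was 0.34 ± 0.07 (SE), with an adjusted p of 0.215. Hjurp, the chaperone that places Cenpa at centromeres, ran from 9.83 to 10.14 in control, from 9.61 to 9.91 in HFD-CO and from 10.22 to 10.41 in HFD-ED mice, and HFD-ED did not overlap either diet. The centromere genes Cenpm and Cenpo, both dim, differed from control by 0.17 ± 0.04 and −0.08 ± 0.02 (SE), so that Cenpo was lower. Ncapg2, Hjurp, Cenpm and Cenpo are named because they had the smallest p of the list for HFD-ED against control. In the list 8 genes lay wholly higher and 1 wholly lower in HFD-ED than in control, against 1.99% and 3.49% of all gene symbols.

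DNA replication genes, which act before mitosis in the same dividing cells, were higher in HFD-ED than in control for 38 of 40 and higher than in HFD-CO for 40 of 40, with medians of 0.40 and 0.32. In this list 31 and 24 genes had an unadjusted p under 0.05, against 5.69% and 6.07% of all gene symbols higher, and 0 passed the adjusted threshold. Without HFD-CO replicates 1 and 4 all 40 were higher than in HFD-CO, with a median of 0.30 and 8 at an unadjusted p under 0.05. The share of all gene symbols in that fit is not given. Averaged over the list, the mice deviated by −0.34, −0.29, −0.08 and 0.04 in control, by −0.10, −0.18, 0.09 and −0.29 in HFD-CO and by −0.09, 0.25, 0.66 and 0.32 in HFD-ED, replicates 1 to 4 in each. The order of the mice within each diet was the same as for the mitotic genes.

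Markers of some cell types were high in the same mice. Of 32 erythroid genes, 28 were measured and 24 were not dim. All 28 were higher in HFD-ED than in control, 15 with an unadjusted p under 0.05 against 5.69% of all gene symbols. The 28 erythroid genes had a median of 0.95. Their mean level ran from 8.39 to 9.32 over control, from 8.31 to 9.42 over HFD-CO and from 8.52 to 10.6 over HFD-ED mice. By mouse the deviations were −0.62, −0.68, −0.09 and 0.25 in control, −0.33, −0.77, 0.35 and −0.64 in HFD-CO and −0.56, 0.85, 1.48 and 0.78 in HFD-ED. HFD-ED replicate 3 was again the highest mouse and HFD-ED replicate 1 the lowest of its diet, among the control and HFD-CO mice. No mitotic gene belongs to the erythroid list, and the part of erythroid cells in the differences was not tested.

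Neutrophil genes, 15 measured of 16 and 12 not dim, were higher in HFD-ED than in control for 15 of 15. Of these 3 had an unadjusted p under 0.05, against 5.69% of all gene symbols. The 15 neutrophil genes had a median of 0.66. Their mean level ran from 8.32 to 9.12 in control, from 8.18 to 8.61 in HFD-CO and from 8.64 to 10.5 in HFD-ED mice. By mouse the deviations were −0.34, −0.55, 0.18 and 0.25 in control, −0.26, −0.69, −0.45 and −0.56 in HFD-CO and −0.23, 0.58, 1.68 and 0.39 in HFD-ED. HFD-ED replicate 3 was again the highest mouse and HFD-ED replicate 1 the lowest of its diet, whereas the highest HFD-CO mouse was replicate 1 and not replicate 3. Megakaryocyte genes were higher in HFD-ED than in control for 12 of 13, with a median of 0.51, and their mean level of 8.69 to 9.31 in HFD-ED mice lay above those of 8.50 to 8.61 in control and 8.35 to 8.48 in HFD-CO mice. The part of either cell type was not tested.

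Lymphocyte lists were not high in those mice. In HFD-ED against control, 12 of 13 B cell genes were lower with a median of −0.16, and 11 of 14 T cell genes with a median of −0.15. Germinal centre B cells divide quickly, and of their 9 measured genes, 4 not dim, 5 were higher and 4 lower with a median of 0.01. By mouse that list was lowest, at −0.25, in HFD-ED replicate 3, the mouse with the highest mitotic genes. The B cell, T cell and plasma cell lists were also lowest in that mouse, at −0.39, −0.43 and −0.32. The part of these cell types in the differences was not tested. Of 10 plasma cell genes 6 were higher and 4 lower with a median of 0.01, and of 13 red pulp macrophage genes 3 were higher and 10 lower with a median of −0.13.

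Of the remaining lists, pancreatic acinar genes were higher for 4 of 11 with a median of −0.02, adipocyte genes for 6 of 7 with a median of 0.0018 and skeletal muscle genes for 5 of 12 with a median of −0.01. The acinar differences between HFD-ED and HFD-CO ran from −2.43 to −1.25. By mouse the acinar list stood at 1.12, −0.78, −0.77 and 4.98 in HFD-CO replicates 1 to 4. The mitotic genes stood at −0.10, −0.21, 0.11 and −0.31 in the same mice, and any link between the lists was not tested.

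**Figure D5:**
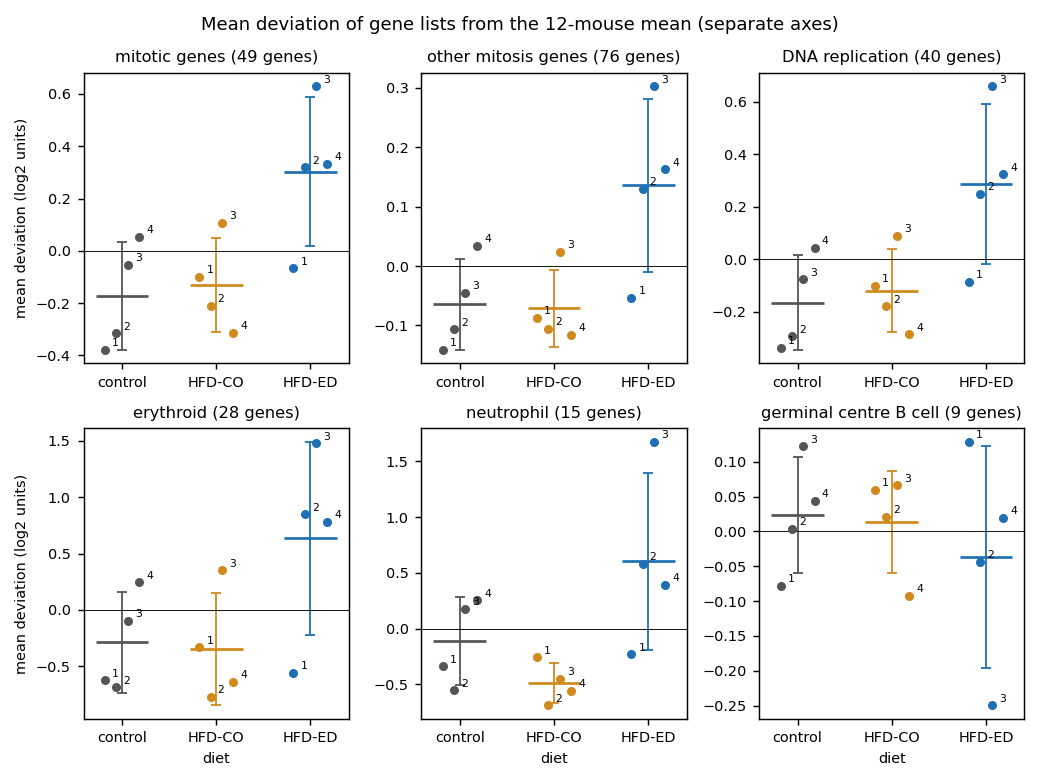
Mean deviation from the 12-mouse mean (log2 units, y axes, each panel on its own scale) of 6 gene lists by diet (x axes), with a point per mouse, its replicate number, the mean as a line and 1 SD as a bar (4 mice per diet). Mitotic, other mitosis, DNA replication, erythroid and neutrophil genes place HFD-ED replicate 3 highest and HFD-ED replicate 1 lowest of its diet. Germinal centre B cell genes place HFD-ED replicate 3 lowest.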

How the data were processed

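Spleen RNA of 12 mice was hybridized to Illumina MouseWG-6 BeadChips, 1 array per mouse. Intensities came out of GenomeStudio, and the authors then used lumiExpresso at its defaults (lumi 2.18.0 in the submitters' processing notes), which applies a variance-stabilizing transformation and then quantile normalization. The deposited values are therefore on a log2 scale between 6.95 and 14.79, with 75.2% of probes below a mean of 7.5. The transformation shrinks differences of dim probes, and quantile normalization removes any shift shared by all probes. Detection p-values were not used here, and the number of arrays limits the precision.

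Diets came from the sample titles. All 45281 probes were fitted with limma 3.58.1 in R 4.3.3, with a mean per diet, 3 comparisons and no covariate, and p-values were adjusted by Benjamini-Hochberg within each comparison. The fit was tested on simulated data. Symbols came from the platform annotation updated through RefSeq, with 34885 probes having 1 symbol, 18 several and 10378 none; probes with several were not named. The gene lists and the members were chosen with earlier results of these data known. Values for each mouse are given for the 2 genes with the smallest p and the gene nearest to 0 in each role for HFD-ED against control, and for the 3 smallest p in HFD-CO against control. Other genes are given by difference or range. Alternatives were other variance models, filters, normalizations, probes, sample sets and a replicate block. A search of protein sequences was not run.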

Additional observations from a re-analysis of the deposited data

Results flagged for a closer look

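In 6 of 150 groups of 4 mice tested, which is 4.0%, 1 mouse lay far from the other 3 by Dixon's test, which flags about 1 in 20 groups by chance. HFD-CO replicate 3 was the distant mouse in 4 of them, each time high. Stmn1 was at 7.89 in that mouse and between 7.55 and 7.57 in the other HFD-CO mice, and Anln at 8.65 against 7.83 to 7.90. Cenpp was at 7.74 against 7.40 to 7.44, and Ncapg at 7.42 against 7.21 to 7.24. The 4 genes share this mouse, so they are not independent observations. Bub3 was at 7.56 in control replicate 2 against 7.67 to 7.69 in the other control mice. Cenpe was at 7.19 in HFD-ED replicate 2 against 7.03 to 7.05.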

How the results depend on the processing

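No mitotic gene passed an adjusted p of 0.05 under any alternative run. The count of all probes that passed in HFD-ED against HFD-CO, 1 as reported, was 0 with a variance trend, with only probes above a mean of 7.5, with only the 2 diets compared, with p-values adjusted over the 3 comparisons together and without HFD-CO replicates 1 and 4. It ran from 0 to 46 when 1 mouse was left out and was 11 without HFD-ED replicates 1 and 3. In HFD-ED against control the count of 0 became 3 with 1 probe per gene symbol and 6 without HFD-ED replicates 1 and 3, and ran from 0 to 87 when 1 mouse was left out. The 46 and the 87 came without HFD-ED replicate 1, when the smallest adjusted p of a mitotic gene was 0.0635 and 0.0518. Leaving out the pairs HFD-CO 1 and 4 or HFD-ED 1 and 3 was chosen after seeing the data. The cause of these changes was not tested.

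Replicate numbers did not clearly pair the mice. Among 12 same-numbered pairs across diets, the deviations of 4 correlated above 0.1, over a range of −0.26 to 0.37. The best match of 3 mice had their number, and whether the numbers mark a batch was not tested. With the replicate block the count in HFD-ED against HFD-CO was 0, and the smallest adjusted p of a mitotic gene was 0.161 against control and 0.236 against HFD-CO.

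The median difference of the 49 genes stayed above 0 in both HFD-ED comparisons, between 0.32 and 0.52 against control and between 0.31 and 0.47 against HFD-CO when 1 mouse was left out, and was 0.31 and 0.27 with all probes of a gene averaged. In HFD-CO against control it ran from −0.01 to 0.09. The 35 genes with an unadjusted p under 0.05 in HFD-ED against control were 25 without control replicate 1 or control replicate 2. The 32 against HFD-CO were 15 without HFD-CO replicate 4, 17 without HFD-ED replicate 3 and 20 without HFD-CO replicate 2. Shares of all gene symbols are not given for these reduced sets of mice. Dim genes changed sign in HFD-ED against control when 1 mouse was left out, namely Bub1 between −0.0139 and 0.0131, Cks2 between −0.0093 and 0.0258, Nuf2 between −0.0143 and 0.0112 and Racgap1 between −0.0108 and 0.0263. Another probe gave 0.0107 for Bub1, −0.0068 for Hmmr and −0.0204 for Ncapg, and −0.0060 for Hmmr in HFD-CO against control.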
